A study of Mus musculus with 200 samples.

Results

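The Hox genes of the 4 mammalian clusters were followed through 2 generations of whole mouse embryos at embryonic day 11.5. Members were all rows of the expression files whose symbol was Hox, a cluster letter a to d and a number, which gave 39 of 22033 genes. In mm9 the Hoxa cluster, of 11 members, lies at chr6:52105366-52210874 on the minus strand and the Hoxb cluster, of 10, at chr11:96055630-96229570 on the plus strand. The Hoxc cluster, of 9 members, lies at chr15:102751534-102867274 and the Hoxd cluster, also of 9, at chr2:74506367-74603200, both on the plus strand. Hox proteins are transcription factors that bind DNA through a homeodomain and give cells their position along the body axis. Genes of a cluster lie in a row in the order of their paralog numbers. Low numbers are known to come on first and to reach furthest forward, into the hindbrain, while high numbers come on later and stay in the trunk, tail and distal limb. Pbx, Meis and Pknox proteins are the partners with which Hox proteins bind DNA, retinoic acid and Cdx proteins are inputs that turn clusters on, and Polycomb proteins keep them off.

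F1 embryos carried 1 chromosome set of C57BL6/J (B6) and 1 of Castaneus (Cast), an inbred strain of another mouse subspecies, and came from both directions of the cross: B6 x Cast and Cast x B6, the mother first, with 8 embryos and 2 litters in each. N2 embryos came from crossing F1 mice, themselves of B6 mothers and Cast fathers, back to B6, with either a B6 mother (89 embryos of 17 litters) or an F1 mother (65 embryos of 12 litters), so that at any gene an embryo was either homozygous for B6 or heterozygous. No embryo was treated, and RNA came from each whole embryo, so a value is an average over all its tissues. In such samples fewer cells of a type and less RNA per cell cannot be told apart. Somite number, a count of body segments used as a clock of stage, was given for 147 N2 embryos (42 to 57 somites) and 13 F1 embryos (41 to 63 somites).

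Libraries were made by 3SEQ, a method whose reads lie near the 3′ end of messages. Reads on genes numbered 15703888 to 38234229 in F1 libraries and 245220 to 5370322 in N2 libraries (median 2297774), so N2 values of low genes rest on few reads. Values are RPM, the reads of a gene per 1000000 reads on all genes. Libraries of N2 embryos were sequenced in 14 lanes on 2 flowcells, and 13 of the 14 lanes held embryos of 1 kind of mother. The total of reads on genes was related to stage in opposite directions in the 2 kinds of N2 embryo, with a Spearman's rho against somite number of -0.207 for B6 mothers and 0.400 for F1 mothers. Lanes carried a median of 63.7% of the variance of ranks of the Hox genes tested, from 10.5% for Hoxc5 to 82% for Hoxc6, against a median of 59.7% over all genes tested. Values with lane removed are therefore given beside the results by stage over all N2 embryos and by genotype, while for the mother, which nearly coincides with lane, values within a flowcell are given.

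Expression per kilobase of exon was highest for Hoxa7, a gene of trunk identity, at 34.01 RPM per kb in F1 and 48.4 in N2 embryos. In F1 embryos it was followed by Hoxc9 (17.9 RPM per kb), Hoxa5 (17.4), Hoxb3 (16.9), Hoxd4 (15.8) and Hoxd9 (15.0). At the low end were Hoxd1 (0.117 RPM per kb) and Hoxa13 (0.127), at the anterior end of the Hoxd and the posterior end of the Hoxa cluster. Hoxa7 shares 586 exon bases with the antisense gene 2700086A05Rik. It ran from 93.5 to 127 RPM (median 107) in B6 x Cast embryos and from 56.6 to 130 RPM (median 85.3) in Cast x B6 embryos. The 2 litters of Cast x B6 did not overlap, at 56.6 to 66.2 RPM and 104 to 130 RPM. Hoxd1 had 0 reads in 137 of 154 N2 embryos and Hoxa13 in 136. A mean of at least 5 RPM, the minimum for tests in N2 embryos, was reached by 26 members, and a mean of at least 1 RPM, the minimum in F1 embryos, by 32.

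Levels did not run evenly along the clusters. In the Hoxc cluster the rho between RPM per kb and paralog number was -0.609 ± 0.104 (mean ± SD over F1 embryos, n = 16). In the other 3 clusters that rho was 0.0131 ± 0.104 for Hoxa, -0.192 ± 0.141 for Hoxb and 0.170 ± 0.0833 for Hoxd. The SD tells how alike embryos ranked the same genes. The Hoxc cluster did not decline steadily. Hoxc4 to Hoxc10 lay between 6.51 (Hoxc6) and 17.9 RPM per kb (Hoxc9). Hoxc11 (0.408 RPM per kb), Hoxc12 (0.673) and Hoxc13 (1.45) were low. Low members stood beside high neighbours: in the Hoxa cluster Hoxa6 was at 0.379 RPM per kb between Hoxa5 and Hoxa7, and in the Hoxd cluster Hoxd8 was at 0.176 RPM per kb beside Hoxd9. Summed over members, the clusters were of like size in F1 embryos, at 172 ± 25.8 RPM for Hoxa, 176 ± 31.2 for Hoxb, 156 ± 21.5 for Hoxc and 137 ± 14.4 for Hoxd (mean ± SD, n = 16). Reads of 3SEQ come from message ends, so division by exon length, from 1.031 kb for Hoxc12 to 6.836 kb for Hoxa3, is only a rough scale between genes.

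**Figure D1:**
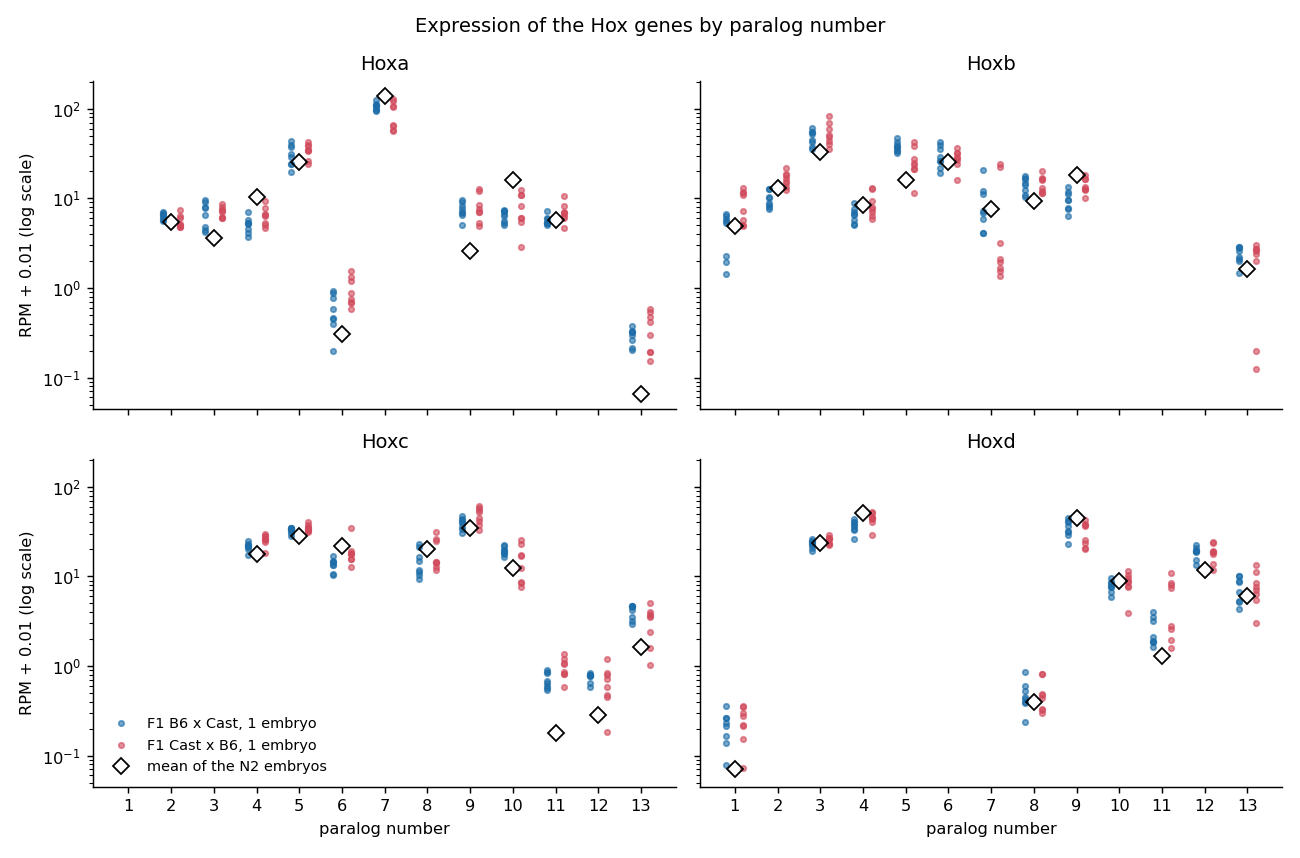
Expression (RPM plus 0.01, log scale) of 38 of the 39 Hox genes against paralog number, with 1 panel for each cluster, 1 point for each F1 embryo of either cross and a diamond at the N2 mean. Hoxa7 stood highest at 97.8 RPM in F1 embryos, and Hoxa6 and Hoxd8 stood under 1 RPM beside well expressed neighbours.

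Hoxd4 was the member whose expression followed the genotype of its own cluster most closely. Hoxd4 specifies the hindbrain and neck region, and lies at the anterior part of the Hoxd cluster. In N2 embryos homozygous for B6 at the cluster, Hoxd4 ran from 15.0 to 155 RPM with a median of 64.7. In heterozygous embryos, which carry 1 Cast copy, it ran from 11.6 to 64.8 RPM with a median of 32.8. The ranges overlapped, but 77 of 78 heterozygous embryos lay under the median of the homozygous embryos. The means were 34.2 ± 13.0 RPM (SD, n = 78) and 67.9 ± 26.2 RPM (SD, n = 75), a ratio of 0.503 (Mann-Whitney U test, Benjamini-Hochberg q = 2.58e-15 over all genes tested).

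Heterozygous embryos had the lower mean in 14 of 14 lanes, and the q with lane removed from the ranks was 1.27e-15. In embryos of B6 mothers the means were 37.2 RPM for heterozygous and 66.4 RPM for homozygous embryos (q = 8.07e-08). In embryos of F1 mothers they were 31.3 RPM and 71.1 RPM (q = 7.12e-06). With lane as a term, edgeR's quasi-likelihood test gave a log2 difference of -0.96 (q = 7.71e-24). F1 embryos, all heterozygous, lay at 26.4 to 44.2 RPM (median 37.4) in B6 x Cast and 29.2 to 52.8 RPM (median 45.1) in Cast x B6. These values lay within the range of the heterozygous N2 embryos and also within that of the homozygous ones.

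Hoxd3, the next gene of the cluster, shares 1725 exon bases with Hoxd4, 67.4% of the exon bases of Hoxd4, and did not pass this test; it was chosen as that neighbour after its values were seen. Hoxd3 was at 24.1 ± 13.3 RPM in heterozygous (SD, n = 79) and 22.7 ± 12.8 RPM in homozygous N2 embryos (SD, n = 75), with a q of 0.631. The ratio of Hoxd4 to Hoxd3 reads had a median of 1.52 in heterozygous and 3.32 in homozygous N2 embryos. In F1 embryos that median was 1.58 for B6 x Cast and 1.72 for Cast x B6. Allele votes, the reads that cover a base where B6 and Cast differ and can be given to 1 of them, were nearly missing for Hoxd4: 5 in all F1 embryos and 1 in heterozygous N2 embryos, against 2495 and 846 for Hoxd3. The share of Hoxd4 reads from each allele could thus not be measured, and how reads over the shared exon were counted is not given in the sources used here.

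The other genes numbered 4, Hoxa4, Hoxb4 and Hoxc4, act in the same hindbrain and neck region. Of these 3 genes, which were chosen for their number, none passed the test for its own genotype. Hoxa4 was at 10.1 ± 15.6 RPM in heterozygous and 11.0 ± 14.1 in homozygous embryos (q = 0.708). Hoxb4 was at 9.23 ± 7.26 RPM and 7.53 ± 5.47 RPM (q = 0.267), and Hoxc4 was at 16.1 ± 8.63 RPM and 19.0 ± 11.8 RPM (q = 0.457).

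The 250 bases before the start of Hoxd4 are shown because the genotype difference was one of total expression. They lie at chr2:74721728-74721977 (plus strand) in the RefSeq annotation of GRCm38.p6, a later build than that of the files, and are the B6 reference sequence. Capitals mark the 2 matches among 4 motifs searched on both strands, which were TTTATGG (bound by Cdx proteins), TATAAA (the TATA box, here read from the other strand), TAATTA (a homeodomain core) and TGATTGAT (a Pbx and Hox site); no 2 of the matches overlapped.
Hoxd4: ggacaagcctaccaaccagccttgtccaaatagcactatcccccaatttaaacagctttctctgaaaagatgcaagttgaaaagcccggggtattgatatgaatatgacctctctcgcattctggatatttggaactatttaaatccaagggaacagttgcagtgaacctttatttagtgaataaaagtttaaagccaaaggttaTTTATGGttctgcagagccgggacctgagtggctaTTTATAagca
Among the 32851 promoter entries of the table, cut to the same length, 2.43% held TTTATGG, 12.4% TATAAA, 4.84% TAATTA and 0.67% TGATTGAT. Among its 24 Hox entries, TTTATGG was found before Hoxd4 alone and TATAAA before Hoxa10, Hoxb8, Hoxd4 and Hoxd13. These are letter matches in the B6 sequence, and the Cast sequence of the window was not used here.

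2 further members differed by the genotype of their own cluster, so that 3 of 26 members passed the test, against 18.3% of all genes tested. Hoxc5, which acts in the neck and upper trunk, ran from 10.3 to 45.7 RPM (median 30.9) in heterozygous and from 10.4 to 37.8 RPM (median 25.6) in homozygous embryos. Its means were 30.7 ± 5.91 RPM (SD, n = 72) and 25.6 ± 5.57 RPM (SD, n = 82), higher with a Cast copy (q = 2.66e-06; with lane removed, q = 2.15e-06). Hoxb3, a hindbrain gene, ran from 5.63 to 123 RPM (median 36.6) in heterozygous and from 4.22 to 118 RPM (median 19.4) in homozygous embryos. Its means were 39.5 ± 24.1 RPM and 25.999 ± 19.0 RPM (SD, n = 77 each; q = 6.98e-04).

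Both genes were higher in heterozygous embryos in 13 of 14 lanes. For Hoxb3 the means differed in the same direction under B6 mothers, at 37.3 against 24.05 RPM, where q was 0.0771, and under F1 mothers, at 41.7 against 29.6 RPM, where q was 0.0175. For Hoxc5 both kinds of mother passed (q = 0.00247 and 0.0107). With lane removed the test called 4 of 26 members, against 28.6% of all genes, the fourth being Hoxb9 at 21.2 ± 21.7 RPM in heterozygous and 15.4 ± 11.8 RPM in homozygous embryos. The other members are given by their range: their ratios of heterozygous to homozygous means lay between 0.643 for Hoxa10 and 1.38 for Hoxb7.

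If the B6 copy of a gene gave the same output in both genotypes, the ratio of means would set the B6 allele fraction (BAF), the share of votes for B6 in a heterozygous embryo, at 0.416 for Hoxc5, 0.329 for Hoxb3 and 0.993 for Hoxd4. The BAF of Hoxc5 from votes was 0.381 in heterozygous N2 embryos (268 votes), where the ratio was measured, and 0.432 in F1 embryos (1128 votes). That of Hoxb3 was 0.418 in heterozygous N2 embryos (122 votes) and 0.526 in F1 embryos (851.5 votes), on either side of 0.5. Hoxd4 had too few votes to be set beside its ratio.

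**Figure D2:**
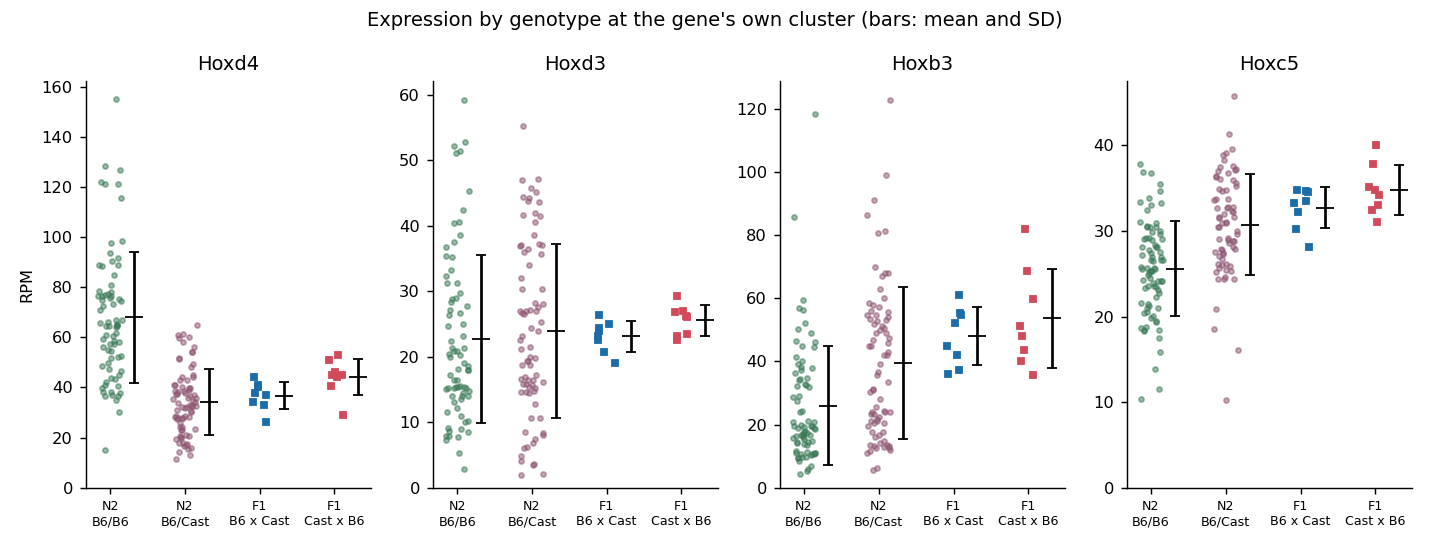
Expression (RPM) of Hoxd4, Hoxd3, Hoxb3 and Hoxc5 in N2 embryos by genotype at the cluster and in F1 embryos by cross, with 1 point for each embryo and bars for the mean and SD. Homozygous embryos lay around 67.9 RPM for Hoxd4 and heterozygous ones around 34.2 RPM, while Hoxd3 beside it was at 22.7 and 24.1 RPM.

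Stage was addressed by correlating expression with somite number. In N2 embryos 3 of 26 members passed the test (Spearman's rank correlation, Benjamini-Hochberg q under 0.05 over all genes), against 22% of all genes tested, and all 3 fell, against 7.97% of all genes that fell. Hoxd4 had a rho of -0.306 (q = 0.00201), Hoxb7 a rho of -0.281 (q = 0.0055) and Hoxb4 a rho of -0.221 (q = 0.0367). Over the 26 members the median rho was -0.119 and 21 of 26 were under 0, beside a median of -0.0241 over all genes tested, of which 55.8% were under 0. With lane removed 1 of 26 members passed, Hoxd4, with a rho of -0.243 (q = 0.0433), against 11.5% of all genes, 3% falling. For Hoxb7 and Hoxb4 the rho was then -0.100 and -0.190.

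The steepest decline was that of Hoxb1, the most anterior gene of its cluster, which is known for its band in a single hindbrain segment and for its expression in the posterior of younger embryos. Its N2 mean of 4.97 RPM was just under the minimum of 5 RPM, so it was tested with the 33 members and 13145 genes that reached 1 RPM. Hoxb1 was at 9.89 ± 3.60 RPM in embryos of 42 to 45 somites (SD, n = 21), 4.37 ± 2.58 RPM at 46 to 52 somites (n = 112) and 2.82 ± 2.49 RPM at 53 to 57 somites (n = 14). Early embryos stood highest and late embryos lowest, by more than the SD of any stage between the early group and the others. Its rho was -0.620 (q = 2.73e-14), and with lane removed it was -0.503 (q = 9.82e-08). Over the means of litters the rho was -0.786 (q = 5.6e-04). It fell under both kinds of mother, with a rho of -0.775 for B6 mothers (q = 2.97e-15) and -0.371 for F1 mothers (q = 0.0231), and in embryos of both genotypes, at -0.633 in 72 heterozygous and -0.616 in 75 homozygous embryos.

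At that lower minimum 5 of 33 members passed, 4 of them falling, against 18.9% of all genes and 6.56% that fell. The member that rose was Hoxc13, the last gene of the Hoxc cluster, which marks the tail and later the hair follicle. Hoxc13 was at 1.59 ± 0.856 RPM in early, 1.59 ± 1.30 in middle and 2.21 ± 1.55 in late embryos, with a rho of 0.257 (q = 0.0144) and, with lane removed, of 0.273 (q = 0.0201). Only the late group stood higher, by less than its SD. The call was lost over litter means (rho 0.224, q = 0.605) and under either kind of mother alone, where q was 0.387 for B6 and 0.0584 for F1 mothers. In F1 embryos Hoxc13 had a rho of 0.334 (q = 0.412), which did not pass.

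Hoxd4 itself was at 67.2 ± 36.3 RPM in early, 48.6 ± 24.5 in middle and 42.9 ± 22.9 in late N2 embryos. The decline was present in embryos of each genotype, with a rho of -0.359 in 75 heterozygous and -0.300 in 71 homozygous embryos, in rank terms much alike. Over litter means its rho was -0.533 (q = 0.111), which did not pass, and no member of at least 5 RPM passed there, 2 of 26 reaching an unadjusted p under 0.05, which 11.4% of all genes did. Under neither kind of mother alone did Hoxd4 pass (q = 0.0609 for B6 and 0.0564 for F1 mothers). Hoxb7, a gene of the trunk, went from 13.1 ± 7.96 RPM in early to 7.01 ± 6.77 in middle and 5.94 ± 6.54 in late embryos. In F1 embryos its rho had the other sign, at 0.608, and did not pass (q = 0.0932). It shares 1069 exon bases with Hoxb8, 26.2% of its own, and Hoxb8 did not pass (rho 0.0397, q = 0.762). Hoxb4, a hindbrain and neck gene that holds the microRNA gene Mir10a in its exons, was at 10.1 ± 6.13, 7.94 ± 5.21 and 11.0 ± 13.4 RPM, an order in which the late embryos were not the lowest. Both Hoxb7 and Hoxb4 passed under B6 mothers (q = 5.45e-05 and 0.00284) and not under F1 mothers (q = 0.475 and 0.836).

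F1 embryos, which the N2 tests did not use, gave 5 of 32 members past the same threshold, against 20.4% of all genes tested, and all 5 fell, against 5.67% of all genes. They were Hoxd4 (rho -0.829, q = 0.00737), Hoxb1 (-0.738, q = 0.0278), Hoxb9 (-0.724, q = 0.0324), Hoxc4 (-0.702, q = 0.041) and Hoxb2 (-0.682, q = 0.04995). F1 stage and litter cannot be told apart, since the 4 litters hold 4 stages. These were 41 to 43 and 46 to 48 somites in Cast x B6, and 48 to 50 and 58 to 63 somites in B6 x Cast. The litter of 46 to 48 somites also differed from the others in its sequencing runs, so run and litter cannot be told apart there.

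Hoxb1 separated the F1 litters by stage. In the youngest litter it was at 11.4, 13.1, 10.9 and 11.8 RPM. In the next, of 46 to 48 somites, it was at 5.04, 7.24, 5.73 and 4.90 RPM, and in the litter of 48 to 50 somites at 5.89, 6.69, 5.60, 5.28 and 6.38 RPM. In the oldest litter it was at 1.44, 2.26 and 1.96 RPM. The youngest and the oldest litter overlapped no other, while the 2 in between overlapped each other although they belonged to different crosses. Hoxd4 was at 34.2, 33.2 and 26.4 RPM in the oldest litter and at 29.2 to 52.8 RPM in the others. With the cross as a term, edgeR called 3 of 32 members, Hoxb1 (-0.17 log2 per somite, q = 3.51e-04), Hoxd4 (-0.05, q = 0.022) and Hoxa3 (-0.07, q = 0.0227), against 7.11% of all genes. On CPM scaled by edgeR's TMM factors Hoxb1 had a rho of -0.666 (q = 0.0591) and no longer passed. Without the oldest litter 1 of 32 members passed on RPM, Hoxb2 (rho -0.807, q = 0.038), while Hoxb1 had a rho of -0.564 (q = 0.19) and Hoxd4 one of -0.716 (q = 0.0797). With both changes, TMM scaling and that litter left out, Hoxb2 and Hoxc4 were among 1264 of 13122 genes that passed.

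Hoxd11, a gene of the limb and lower trunk, was not called (Spearman's rho -0.481, q = 0.210). It set 1 litter apart, and was chosen after its values were seen. It was at 7.47, 8.02, 8.44 and 11.0 RPM in the youngest litter and between 1.57 and 4.00 RPM in the 12 other F1 embryos, without overlap. In N2 embryos its means were 0.868, 1.32 and 0.768 RPM in early, middle and late embryos, in no such order. Hoxa7, also not called in F1 embryos (Spearman's rho 0.431, q = 0.272), set the same litter apart. It was at 56.6 to 66.2 RPM in the youngest litter and at 93.5 to 130 RPM in the other F1 embryos, without overlap. How many of all genes set this litter apart was not counted, so neither gene can be called unusual in this.

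**Figure D3:**
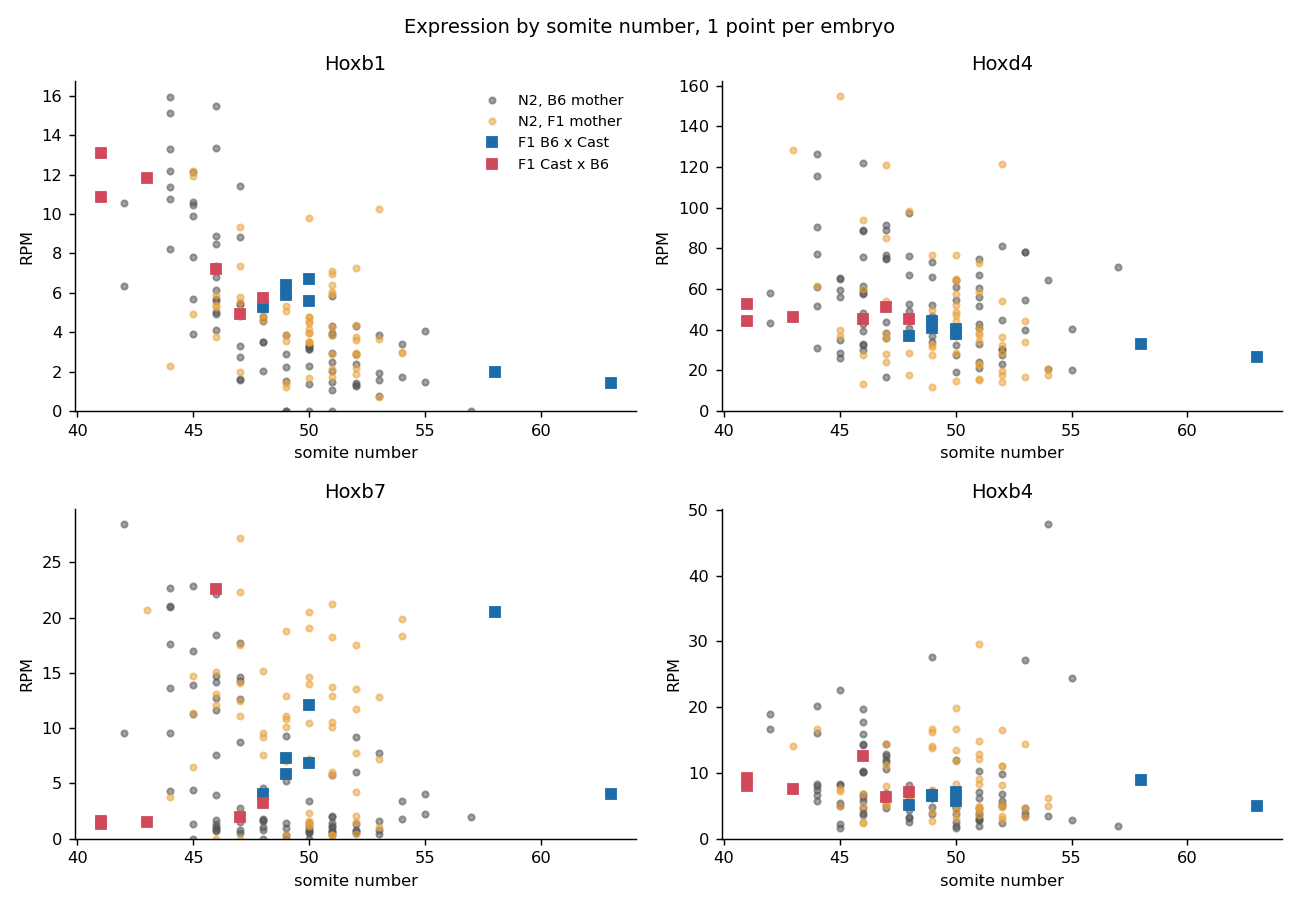
Expression (RPM) of Hoxb1, Hoxd4, Hoxb7 and Hoxb4 against somite number, with 1 point for each embryo that has one, coloured by mother for N2 and by cross for F1 embryos. Hoxb1 went from 9.89 RPM on average at 42 to 45 somites to 2.82 RPM at 53 to 57 somites, and its F1 embryos followed the same course.

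By paralog number, the members numbered 1 to 4 leaned furthest towards decline. In N2 embryos, over members with a mean of at least 1 RPM, their rho was under 0 in 11 of 11 with a median of -0.152, that of members 5 to 8 in 6 of 9 (median -0.122) and that of members 9 to 13 in 10 of 13 (median -0.0654). In F1 embryos it was under 0 in 9 of 10 members numbered 1 to 4 (median -0.593), 5 of 9 numbered 5 to 8 (median -0.0552) and 6 of 13 numbered 9 to 13 (median 0.0497). All genes tested had a median of -0.0242 in N2 embryos, with 56.2% under 0, and of 0.169 in F1 embryos, with 41.3% under 0. With lane removed the order in N2 embryos changed: members 1 to 4 still had the lowest median, but members 9 to 13 had a lower one than members 5 to 8. Under 0 were 8 of 11 members numbered 1 to 4 (median -0.106), 5 of 9 (median -0.0178) and 8 of 13 (median -0.0443). All genes then had a median of 0.021, with 43.8% under 0. Under B6 mothers 11 of 11 members numbered 1 to 4 were under 0 (median -0.309), against 66.6% of all genes. Under F1 mothers 5 of 11 were (median 0.0885), against 24.2% of all genes. The difference between the groups of numbers was not tested.

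The correlations stood apart between the 2 kinds of mother. Under B6 mothers 15 of 26 members passed and all 15 fell, against 51.6% of all genes, 34.8% falling, and the median rho of the members was -0.288 against -0.146 over all genes. Under F1 mothers 2 of 26 passed, against 23.1% of all genes, 2.84% falling. These were Hoxa5, a gene of neck and lung, which rose (rho 0.460, q = 0.00334), and Hoxd3, which fell (rho -0.438, q = 0.00543), and the median rho of the members was 0.114 against 0.146 over all genes. A test of the difference of slopes in edgeR (mother by somite number) called 14 of 26 members, 11 with the higher slope under F1 mothers and 3 with the lower (Hoxa7, Hoxd3 and Hoxd4), against 46.5% of all genes. With library size in place of edgeR's TMM scaling all 14 calls were higher under F1 mothers and 0 lower. With lane as a term it called 0 of 26, against 0.0205% of all genes, and 0 of 26 also at an unadjusted p under 0.05, which 6.25% of all genes reached. Mother and lane cannot be told apart in these slopes.

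**Figure D4:**
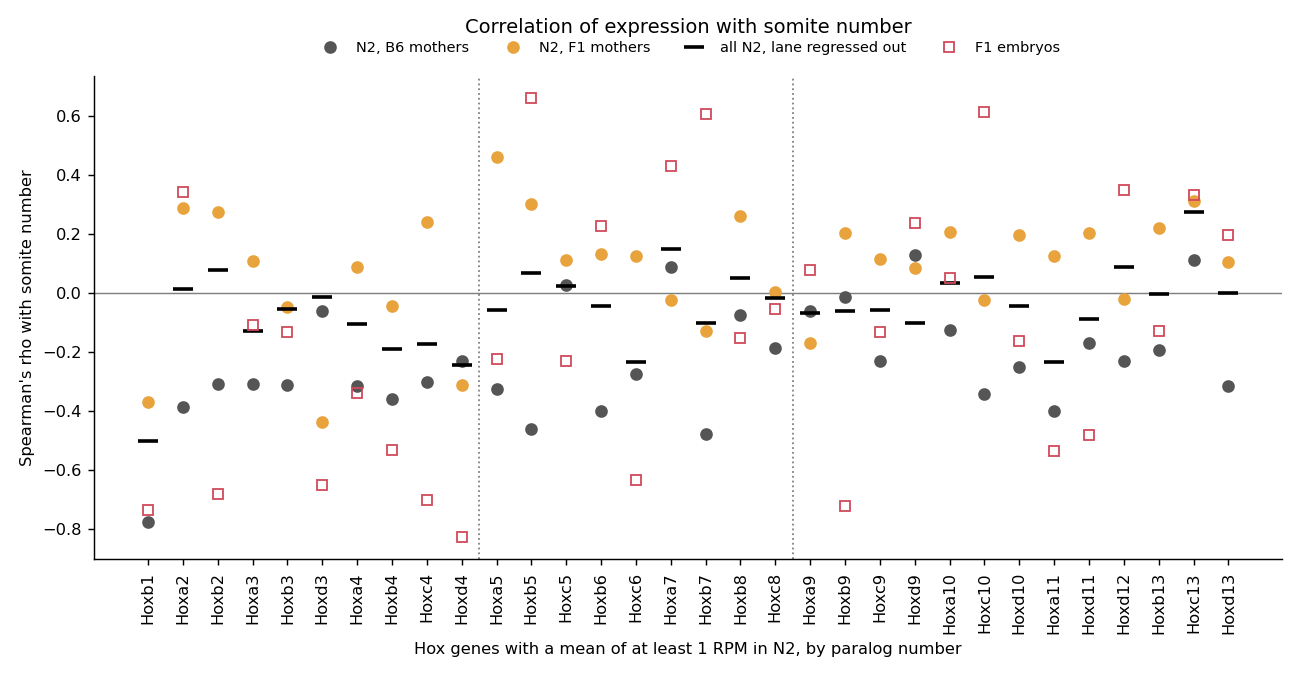
Spearman's rho of expression with somite number for 32 of the 33 Hox genes that reached a mean of 1 RPM in N2 embryos, ordered by paralog number, for N2 embryos of B6 and of F1 mothers, all N2 embryos with lane regressed out, and F1 embryos. Dotted lines part numbers 1 to 4, 5 to 8 and 9 to 13. Hoxb1, Hoxb3, Hoxb4, Hoxd3 and Hoxd4 lay under 0 in all 4 sets.

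The mother's genotype was also compared directly, to ask whether embryos of B6 and F1 mothers differ in total expression. No member of 26 passed (Mann-Whitney U test, Bonferroni-adjusted p under 0.01), against 5.03% of all genes. Hoxd12, a limb gene, came nearest, at 9.80 ± 4.56 RPM under B6 (SD, n = 89) and 14.9 ± 6.46 RPM under F1 mothers (SD, n = 65), with an adjusted p of 0.0122. Hoxb5, a trunk gene, was at 13.2 ± 9.73 and 20.2 ± 7.75 RPM (adjusted p = 0.0511). At an unadjusted p under 0.05, 40.2% of all genes and 10 members passed, and edgeR and DESeq2, at an adjusted p under 0.05, each called 7 members, against 25.8% and 27.9% of all genes. With Benjamini-Hochberg adjustment 9 of 26 members passed, against 31.6% of all genes: Hoxb3, Hoxb5, Hoxb7, Hoxc5, Hoxc10, Hoxd3 and Hoxd12 were higher under F1 mothers, and Hoxd4 and Hoxd9 lower. Over litter means none passed, of members or of all genes. Within a flowcell the directions parted: with that adjustment 9 members were higher and 7 lower under F1 mothers on flowcell 1, where 19.2% of all genes were higher and 25.9% lower. On flowcell 2, 17 were higher and 0 lower, where 46.4% of all genes were higher and 9.41% lower.

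Allele-specific expression (ASE) was read from votes. A minimum of 20 votes, required of both F1 crosses and of the heterozygotes of both N2 crosses, was met by 16 of 39 members, and 5 members (Hoxa13, Hoxc9, Hoxc11, Hoxd10 and Hoxd11) had none at all. Hoxb7 was the only 1 of the 16 that passed (paired test of B6 against Cast votes over embryos, Bonferroni-adjusted p = 0.00265, BAF outside 0.45 to 0.55), against 18.9% of all genes tested. Its BAF was 0.332 over all votes, 0.306 in F1 embryos and 0.381 in heterozygous N2 embryos, so that most votes were for Cast.

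Embryos differed widely at Hoxb7. In B6 x Cast embryos its BAF lay between 0.0593 and 0.319 with all 8 under 0.5, while in Cast x B6 embryos with at least 20 votes it lay between 0.286 and 0.727. Pooled, the crosses stood at 0.207 and 0.430. Of the 31 heterozygous N2 embryos with at least 10 votes, 24 were under 0.5 and 5 over it. The variance between F1 embryos was 11.4 times that of counting. A quasi-binomial test that takes this variance into account did not call Hoxb7 in F1 embryos alone (adjusted p of 1), nor did the paired test (adjusted p of 1). Its expression was as uneven: 6 of 8 Cast x B6 embryos lay between 1.36 and 3.19 RPM and the other 2 at 22.5 and 24.1 RPM, while B6 x Cast embryos lay between 4.06 and 20.5 RPM. Leaving out any 1 F1 embryo kept the pooled BAF between 0.315 and 0.345.

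Hoxb1 leaned the other way and did so in every F1 embryo. Its BAF lay between 0.554 and 0.818 (median 0.667), over 0.5 in 16 of 16 embryos, and pooled it was 0.669 in B6 x Cast and 0.667 in Cast x B6. In heterozygous N2 embryos it was 0.574, with 13 of 21 embryos of at least 10 votes over 0.5. The adjusted p of 0.0272 missed the threshold of 0.01, while the quasi-binomial test over F1 embryos gave 0.00946 and passed, as did 12% of all genes. By Benjamini-Hochberg the paired test called 3 of the 16 members, Hoxb1, Hoxb7 and Hoxc5, against 31.8% of all genes.

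Hoxc5 had a BAF of 0.422, with 14 of 16 F1 embryos under 0.5 (0.333 to 0.527). Of the 25 members with at least 20 votes in each F1 cross, the most uneven was Hoxa6, a trunk gene with few reads, at a BAF of 0.064 over 125 votes in F1 and 0.0714 over 56 votes in N2 embryos. It did not reach the minimum in all 4 crosses and was not part of the main test, and its quasi-binomial adjusted p over F1 embryos was 0.0133. In F1 embryos alone the paired test called 0 of 25 members, against 9.08% of all genes, with 8 members at an unadjusted p under 0.05, which 51.2% of all genes reached. By Benjamini-Hochberg it called 5 of 25 (Hoxa6, Hoxb1, Hoxb7, Hoxc5 and Hoxc8), against 26.5% of all genes.

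Tested members of the Hoxb cluster lay on both sides of 0.5, but 4 of the 7 lay between 0.45 and 0.55. Outside were Hoxb7 (0.332), Hoxb13 (0.587) and Hoxb1 (0.646), of which only Hoxb7 passed the main test. In the other clusters no tested member passed. Whether members of a cluster lean to 1 allele together was not tested. Hoxc had 1 tested member, and the 4 tested members of Hoxa and the 4 of Hoxd all had a BAF between 0.45 and 0.55. BAF was over 0.5 in 1 of 4 tested members of Hoxa, 5 of 7 of Hoxb, 0 of 1 of Hoxc and 2 of 4 of Hoxd, 8 of 16 in all, beside 49.5% of all genes tested. In the Hoxb cluster BAF ran from 0.332 at Hoxb7 to 0.646 at Hoxb1, although 154 of 154 N2 embryos had 1 genotype across the whole cluster. In the Hoxa cluster BAF ran from 0.452 to 0.533 and in the Hoxd cluster from 0.466 to 0.540. The median BAF of the 16 members was 0.49987, against 0.4995 over all genes, and 75% of them lay between 0.45 and 0.55, against 54.1% of all genes. In 13 of 16 members F1 and N2 embryos lay on the same side of 0.5, a count for which no share over all genes was computed. For the other clusters, 1 genotype held across all members in 152 (Hoxa), 153 (Hoxc) and 153 (Hoxd) of 154 N2 embryos.

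**Figure D5:**
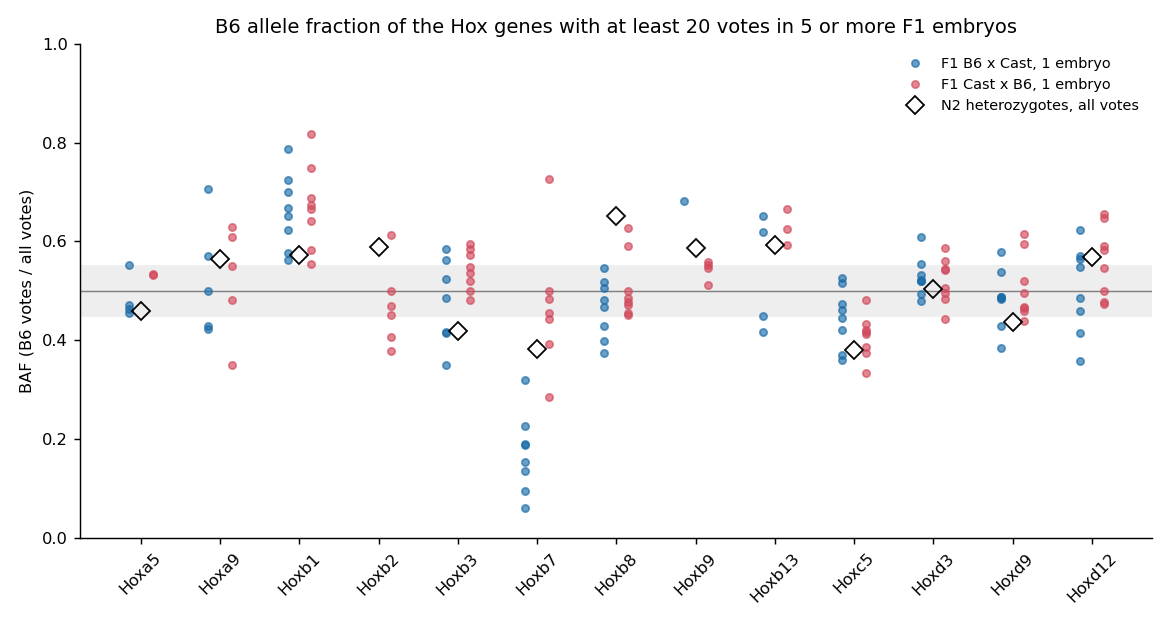
BAF of the 13 Hox genes with at least 20 votes in 5 or more F1 embryos, with 1 point for each F1 embryo of that many votes by cross and a diamond for all heterozygous N2 embryos together; the grey band spans 0.45 to 0.55. All 16 F1 points of Hoxb1 lay over 0.5, and the B6 x Cast points of Hoxb7 lay between 0.0593 and 0.319.

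Parental origin was read from the 2 F1 crosses. By a binomial test in each cross 0 of 25 members leaned to the allele of the same parent in both, against 1.36% of all genes, a quasi-binomial test also gave 0, and so did both tests at an unadjusted p under 0.05. For Hoxb7 only 1 cross passed (adjusted p = 1.73e-85 in B6 x Cast and 0.458 in Cast x B6), on counting error alone. Whether BAF changes with stage could not be read in any member at 20 votes for each embryo, since none had 20 such heterozygous N2 embryos (0.297% of all genes passed). At 10 votes Hoxb1 (rho 0.105, 21 embryos), Hoxb7 (rho 0.253, 30 embryos) and Hoxd3 (rho -0.0697, 35 embryos) could be read and none passed, against 0.346% of all genes. At 5 votes Hoxd9 joined (rho -0.0953, 25 embryos) and none passed, against 0.148% of all genes. Their unadjusted p-values ran from 0.177 to 0.691.

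Embryos high in 1 Hox gene were only weakly high in others. With lane removed from the ranks, the median rho over the 73 pairs of members within a cluster was 0.132 across 154 N2 embryos, and over the 252 pairs between clusters it was 0.132 as well. Pairs with neighbouring numbers had a median of 0.181, and pairs of the same number in different clusters 0.188. Hoxb and Hoxc pairs stood at 0.228 and 0.237, Hoxa and Hoxd pairs at 0.0613 and 0.102. The highest pair was Hoxc8 and Hoxc9 at 0.611, neighbours of trunk identity that share no exon, which stood at 0.676 in F1 embryos. Over the 16 F1 embryos the median was 0.0794 for 115 pairs within a cluster and 0.159 for 381 pairs between clusters. With lane kept the medians in N2 embryos were 0.460 within and 0.372 between clusters. Pairs share libraries and depth, no pairs of other genes were set beside them, and these values are descriptions.

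Other genes of the pathway were counted by lists, beside 14.1% of all genes tested that rose with somite number in N2 embryos and 7.97% that fell. Among 9 cofactors 1 fell with somite number in N2 embryos, Pknox2 (rho -0.209, q = 0.0498), and 0 rose. Among 7 tested upstream regulators 3 rose, among them the retinoic acid receptors Rara (rho 0.228, q = 0.03) and Rarg (rho 0.220, q = 0.0377), and 0 fell. Among 10 chromatin regulators 1 rose, the Polycomb gene Ring1 (rho 0.266, q = 0.00929). With lane removed, where 8.5% of all genes rose and 3% fell, none of the genes called in these 3 lists passed, and Ezh1, another Polycomb gene, did (rho 0.273, q = 0.0186). In F1 embryos, where 14.7% of all genes rose and 5.67% fell, 2 genes of these lists passed, the growth factor gene Gdf11 (rho -0.713, q = 0.0367) and the Polycomb gene Ezh2 (rho -0.765, q = 0.0201), and both fell. Of 3 cluster neighbours and 1 cluster RNA, Hoxa11as, none passed. Hoxa11as, at 126 RPM in N2 embryos, overlaps 1038 exon bases of Hoxa11 on the other strand, which was itself at 5.80 RPM, and whether counting used strand is not given in the sources used here. Cdx1, Cdx2 and Cdx4 were each under 0.5 RPM, and no ParaHox gene reached 5 RPM.

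Markers of other tissues were set beside the stage results for these whole embryos. Of all genes tested in N2 embryos, 14.1% rose with somite number and 7.97% fell. All 3 liver markers rose with somite number, and their sum, 78.3 to 1817 RPM under B6 and 177 to 1259 RPM under F1 mothers, had a rho of 0.529 in N2 and 0.798 in F1 embryos. Of 5 erythroid markers 2 fell, of 5 tested limb markers 1 fell (Fgf8, rho -0.476), of 3 tested hindbrain and spinal cord markers 1 fell (Olig2, rho -0.308), and of 3 rostral brain markers none passed. With lane removed, where 8.5% of all genes rose and 3% fell, the liver markers, Fgf8, Olig2 and the 2 erythroid markers kept their calls. The sum of the 5 tail bud markers, 1.72 to 19.0 RPM under B6 and 1.66 to 19.0 RPM under F1 mothers, had a rho of -0.0243 in N2 and -0.732 in F1 embryos, and none was at 0 in all embryos. Placental markers were near absent, with a sum of at most 3.99 RPM in any N2 embryo and Prl3d1, Prl2c2 and Ctsq at 0 in all. The part of these shifts in tissue makeup in the decline of Hoxb1 and Hoxd4 was not tested.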

How the data were processed

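Whole-embryo 3SEQ libraries of 16 F1 and 154 N2 embryos were used; 8 further expression columns matched no labelled embryo and 6 embryos had no genotype column, and these were left out of the comparisons. The authors trimmed reads, mapped them with Bowtie2 to mm9 and to mm9 carrying Cast variants, and deposited raw counts of reads on exons of RefSeq genes. They deposited allele votes, which are estimated counts because a read over several variants splits its vote, and genotype codes for each gene from a hidden Markov model of those votes. Each F1 embryo was sequenced in several runs but has 1 deposited column. Whether counting used strand is not given in the sources used here.

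From the deposited counts RPM was computed over all genes. Spearman's rank correlation for somite number in N2 embryos, a Mann-Whitney U test for the mother (Bonferroni, p under 0.01), a paired test of votes for ASE and a binomial test for parental origin followed the study's methods. For the own genotype the rank-sum test of the study was run on RPM at the gene's own locus (Benjamini-Hochberg, q under 0.05), in place of PEER-normalised values over all marker regions with permuted false discovery rates. A lower minimum was set for F1 embryos because their libraries are deeper. Each test ran over all genes that reached a mean of 5 RPM in N2 embryos, 1 RPM in F1 embryos or, for votes, 20 votes. edgeR 4.0.16 tested the difference of slopes, and edgeR and DESeq2 1.42.0 on raw counts were alternatives, with lane, litter means, flowcells, filters and scalings (Python 3.11.15, scipy 1.17.1, R 4.3.3). Scripts were tested on simulated data. Depth was 15703888 to 38234229 reads on genes in F1 and 245220 to 5370322 in N2 libraries, and embryos of a litter or lane are not independent, so p-values over embryos are too small where litters or lanes differ.

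Full values were given for members called in a comparison, the first and last measured member of each cluster, those with the highest and lowest mean, and those with the most extreme BAF. Members and lists were chosen with earlier results of these data known. Some values and sequences are not reported here. Coordinates are those of the mm9 annotation and promoters those of RefSeq on GRCm38.p6.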

Additional observations from a re-analysis of the deposited data

Results flagged for a closer look

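3 of 78 sets of 8 F1 embryos held an embryo far from the others of its cross, where chance alone sets apart about 1 in 20 such sets. A B6 x Cast embryo of 49 somites was at 7.25 RPM for Hoxa11, with the others at 5.09 to 6.11 RPM. A Cast x B6 embryo of litter 1 was at 18 RPM for Hoxc4, with the others at 24.3 to 30 RPM. A Cast x B6 embryo of 46 somites was at 34.3 RPM for Hoxc6, with the others at 12.8 to 19.4 RPM.

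The change with somite number differed between N2 embryos of F1 and of B6 mothers in 14 of 26 members by the interaction term of edgeR, against 46.5% of all genes tested. The slope under F1 mothers minus that under B6 mothers, in log2 per somite, was 0.218 for Hoxa2, 0.418 for Hoxa4, 0.223 for Hoxa5, 0.326 for Hoxa10 and 0.271 for Hoxa11. It was 0.193 for Hoxb2, 0.17 for Hoxb5, 0.244 for Hoxb7, 0.128 for Hoxc4, 0.294 for Hoxc6 and 0.344 for Hoxd13. It was -0.0884 for Hoxa7, -0.127 for Hoxd3 and -0.148 for Hoxd4. With lane as a term 0 of 26 passed, so mother and lane cannot be told apart here.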

How the results depend on the processing

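For somite number in N2 embryos 3 of 26 members passed, and 2206 of all 10007 genes. Numbers of all genes that passed follow in brackets. On TMM-scaled CPM 5 members passed (2044), by edgeR 6 (2263) and by DESeq2 7 (3042). Among embryos of at least 1000000 reads 6 passed (2734), under B6 mothers 15 (5161) and on flowcell 2 9 (3920). With lane removed 1 passed (1151), over litter means 0 (174) and by Bonferroni 0 (455). At a minimum of 1 RPM 5 of 33 members passed (2489 of 13145 genes), and by edgeR 7 (2503). Without a filter 6 of 39 did (2362 of 18688 genes). For F1 embryos 5 of 32 members passed, and 2675 of 13122 genes. With the cross as a term 3 did (933), and on TMM-scaled CPM 6 (2583). Without litter 3 of B6 x Cast 1 member passed on RPM and 2 on TMM-scaled CPM (1264 genes for the latter). For the mother 0 members passed, against 5.03% of all genes. By Benjamini-Hochberg 9 did (31.6% of all genes), and 16 and 17 on the single flowcells (45.1% and 55.8%). By edgeR 7 passed (25.8%) and by DESeq2 7 (27.9%). On TMM-scaled CPM 1 passed, and by edgeR with somite number 8. For slopes 14 members (46.5% of all genes) became 0 with lane (0.0205%). With lane the sign turned for Hoxa4 (-0.027), Hoxa10 (-0.029), Hoxb2 (-0.1037), Hoxc6 (-0.0327) and Hoxd13 (-0.0764). Library size in place of TMM gave 14 higher and 0 lower. For ASE 1 member passed (18.9% of all genes), 3 by Benjamini-Hochberg (31.8%) and 0 in F1 embryos (9.08%). In F1 embryos by Benjamini-Hochberg 5 did (26.5%), and in N2 heterozygotes 0. At 50 votes 4 of 7 members had a BAF over 0.5, and the median pair within a cluster stood at 0.46 with lane kept. Leaving out each F1 embryo in turn put the BAF of Hoxb7 between 0.3149 and 0.345 and its adjusted p in the paired test between 0.00243 and 0.00492. The own-genotype calls of Hoxc5 and Hoxd4 held under each alternative run. The cause of these shifts was not tested. Alternatives at a combined minimum or scaling, on single flowcells by Benjamini-Hochberg, in F1 embryos by Benjamini-Hochberg, without a litter and without single embryos were chosen after seeing the data. No paired analysis was possible because replicate numbers were given in accession order and pair no embryos across groups; alleles were compared within embryos, and genotypes also within lanes. Low depth in N2 libraries limits genes near 1 RPM, and votes limit ASE to 16 members.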
